A study of Homo sapiens with 4 samples.

Results

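The genes described here encode the enzymes that build cholesterol and fatty acids, together with the regulators that control them, 28 genes of the 20323 in the deposited table. They were chosen by name as sterol regulatory element-binding protein (SREBP) factors and their sterol and fatty acid synthesis targets, and each was found by its Ensembl identifier. RNA was sequenced from NK-92, an established human natural killer (NK) cell line that grows in interleukin-2, after transduction with lentivirus. The study asked how the RNA-editing enzyme ADAR1 bears on the antitumor capacity of NK cells. The control group, NK scramble, carried a scrambled short hairpin RNA (shRNA), and the knockdown group, NK shADAR1, carried an shRNA against ADAR1, with 2 libraries in each group described as independent biological replicates. Both groups went through viral transduction in the presence of polybrene and both were kept in medium with serum and interleukin-2. The knockdown libraries are labelled shADAR1-1 and shADAR1-2, and the labels do not say whether the number marks a replicate or a hairpin. The study's text names only shADAR1-2 cells, after a hairpin of that name, as the knockdown cells that were sequenced. The knockdown libraries are called replicate 1 and replicate 2 here.

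Cholesterol is made in the endoplasmic reticulum from acetyl-CoA through mevalonate, squalene and lanosterol. Its synthesis is set largely by SREBP-2, encoded by SREBF2, and fatty acid synthesis by SREBP-1, encoded by SREBF1. When membrane sterol is low, the escort protein SCAP carries SREBP to the Golgi apparatus, where proteases release a fragment that enters the nucleus and turns on the enzymes' genes. When sterol is high, the INSIG proteins hold SCAP back, and INSIG1 is itself a target of SREBP. In NK cells, SREBP activity is known to support the metabolic response to cytokine stimulation.

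The DNA just before the RefSeq starts of these genes was searched for 4 short motifs. RefSeq promoter windows (GRCh38.p14) were found for 24 of the 28 genes. In the first listed window of each gene, 250 bases before the annotated start were searched on both strands. The bases after the start were found in an annotated transcript of the gene (GENCODE v29) for all but IDI1 and ACACA. The sterol regulatory element motif CACNCCA was present for 8 of 24 genes (33.3%), against 13.5% of 9535 genes tested here, counted in the same way, and 14.7% of all 35116 windows, where a gene can have several. The CCAAT box CCAAT, bound by NF-Y, was present for 16 of 24 (66.7%), against 35.8% of tested genes and 32% of all windows. The GC box GGGCGG, bound by Sp1, was present for 23 of 24 (95.8%), against 65.9% and 42.6%. The E box CACGTG was present for 3 of 24 (12.5%), against 9.03% and 6.34%. A match describes the letters in the window and does not show that a protein binds there.

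Of 4 windows, MSMO1, INSIG1 and HMGCS1 are shown because these genes were lower in both knockdown libraries, and ELOVL6 because its libraries overlapped between the groups. They lie at chr4:165327419-165327668 on the plus strand, chr7:155297628-155297877 on the plus strand, chr5:43313413-43313662 on the minus strand and chr4:110198616-110198865 on the minus strand. Each is written from 5′ to 3′ on the strand of its gene and ends at the base before the RefSeq start. Motif matches on either strand are in capitals. The outer gene starts in GENCODE v29 differ, and all 4 windows overlap the GENCODE span of their gene. The ELOVL6 window lies wholly inside that span (chr4:110045846-110199199), so it is not upstream of the whole gene.
MSMO1: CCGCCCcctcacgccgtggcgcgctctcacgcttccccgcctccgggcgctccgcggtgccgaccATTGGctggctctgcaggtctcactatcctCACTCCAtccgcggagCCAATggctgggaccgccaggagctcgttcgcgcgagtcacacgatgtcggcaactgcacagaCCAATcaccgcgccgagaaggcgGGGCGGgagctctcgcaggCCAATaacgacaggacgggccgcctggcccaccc
INSIG1: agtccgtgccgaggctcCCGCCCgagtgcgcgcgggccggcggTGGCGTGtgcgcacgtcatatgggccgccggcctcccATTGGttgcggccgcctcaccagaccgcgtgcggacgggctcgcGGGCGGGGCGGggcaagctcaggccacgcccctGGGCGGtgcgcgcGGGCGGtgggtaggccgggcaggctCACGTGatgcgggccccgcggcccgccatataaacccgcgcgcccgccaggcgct
HMGCS1: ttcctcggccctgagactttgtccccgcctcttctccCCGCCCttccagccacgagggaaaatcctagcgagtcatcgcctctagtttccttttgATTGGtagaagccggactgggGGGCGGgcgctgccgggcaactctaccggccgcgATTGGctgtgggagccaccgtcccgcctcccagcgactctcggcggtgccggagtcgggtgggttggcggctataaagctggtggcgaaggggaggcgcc
ELOVL6: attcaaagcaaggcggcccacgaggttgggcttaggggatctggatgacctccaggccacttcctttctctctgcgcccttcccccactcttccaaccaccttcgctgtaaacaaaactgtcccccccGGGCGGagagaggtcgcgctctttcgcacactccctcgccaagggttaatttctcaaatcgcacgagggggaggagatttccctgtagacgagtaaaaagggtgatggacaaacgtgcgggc
The MSMO1 window held 7 matches, 4 of them CCAAT boxes, with 1 sterol regulatory element motif between 155 and 149 bases before the start. The INSIG1 window held 8 matches, which included 5 overlapping or separate GC boxes, a sterol motif, a CCAAT box and an E box. HMGCS1 had 2 CCAAT boxes and 2 GC boxes but no sterol motif, and ELOVL6 had 1 GC box. Of the 24 genes, 14 had both knockdown libraries below both controls, against 12.6% of all tested genes. The sterol motif was present for 5 of these 14 and for 8 of all 24, and the CCAAT box for 12 and 16. The GC box was present for 13 of the 14 and 23 of the 24, and the E box for 2 and 3. MVK, SREBF2 and TM7SF2 held both the sterol motif and a CCAAT box although their groups overlapped. A link between motifs and levels was not tested.

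In the libraries sequenced, totals ran from 37881704 to 39960491 estimated counts. All 28 genes passed the filter on low counts, among 11810 genes tested, and their smallest count in any library was 350, for which counting error alone is 5.35%. Correlations of log2 CPM (counts scaled to library size) were 0.981 within each group and ran from 0.981 to 0.989 across groups. Libraries of a group were thus no closer to each other than to the other group. The highest values, 0.985 and 0.989, were between the same-numbered libraries of the groups. ADAR, the gene that was targeted, was at 655 and 682 CPM in the 2 NK scramble libraries, against 575 and 482 CPM in the knockdown libraries. It was lower in both knockdown libraries, by a log2 fold change of -0.34 (SE 0.20, n = 2 per group), and did not pass the test (edgeR quasi-likelihood test, adjusted p = 1.00). The study itself reports effective knockdown of ADAR1 in NK-92 cells by qRT-PCR and western blotting. All 12 NK markers passed the filter, among them NKG7, GNLY and NCAM1. Of 6 T cell markers, CD3E (533 to 778 CPM) and TRAC (101 to 140.5 CPM) were well above 0, whereas CD3D was at most 0.61 CPM and CD3G, CD4 and CD8B did not pass the filter. None of 5 epithelial markers of packaging cells passed it, and of the B cell and monocyte markers CD79A, CSF1R and CD68 did, at no more than 4.26 CPM.

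The levels of these genes differed widely when compared per length. In mean FPKM over the 4 libraries, FDPS was highest at 346, followed by EBP at 264, SCD at 210, INSIG1 at 176 and HMGCS1 at 173. The lowest were TM7SF2 at 8.30, INSIG2 at 6.36 and ELOVL6 at 2.91. INSIG1 was 27.6-fold above INSIG2 in FPKM, and SREBF2 was 3.68-fold above SREBF1. NK-92 cells thus held far more RNA for the SREBP-responsive INSIG than for the other, in both groups.

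**Figure D1:**
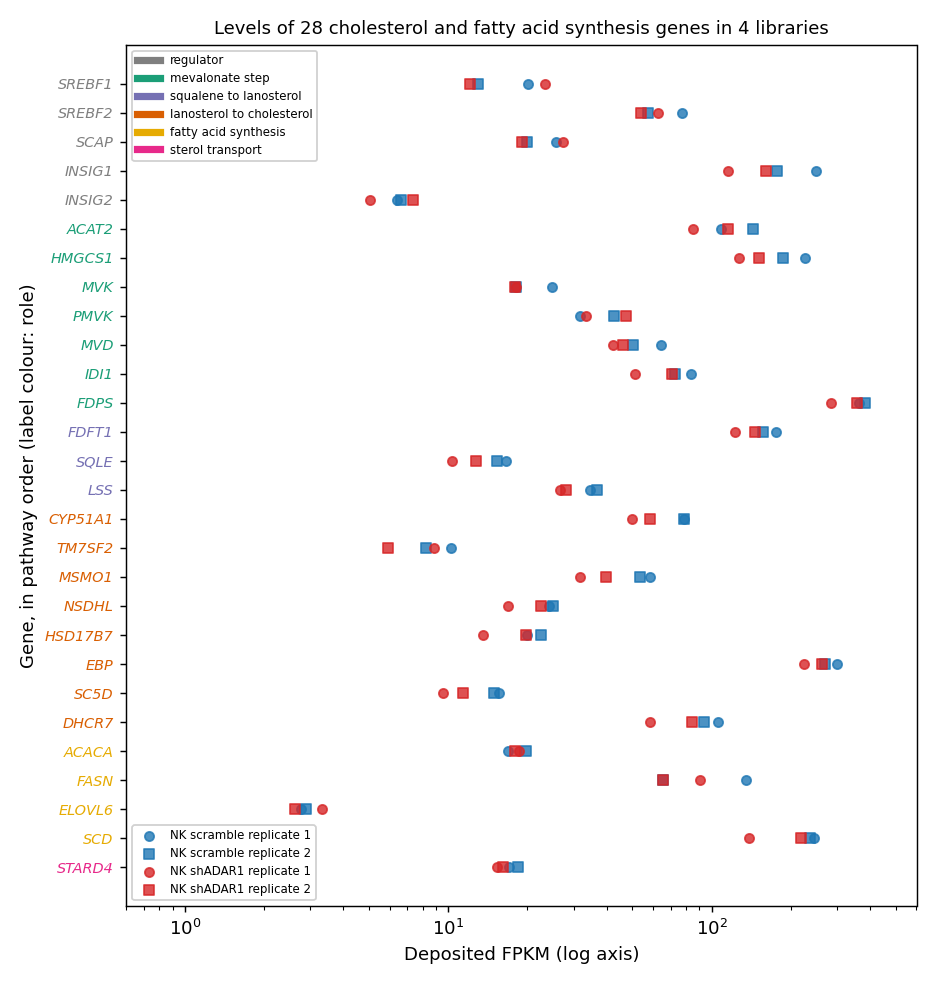
Deposited FPKM (horizontal log axis) of each of the 28 genes in each of the 4 libraries, in pathway order, with gene names coloured by role. FDPS has the highest mean at 346 and ELOVL6 the lowest at 2.91, and for most sterol enzymes the red circle of NK shADAR1 replicate 1 is the leftmost point.

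The enzymes of cholesterol synthesis were for the most part lower in NK shADAR1 than in NK scramble, by amounts that were mostly under 1.5-fold, and no gene passed the test after adjustment. Of the 28 genes, 25 had a log2 fold change below 0, against 50% of all tested genes. The median log2 fold change was -0.33 over the 28 genes and 2.76e-05 over all tested genes. Both knockdown libraries were below both control libraries in CPM for 16 of 28 genes, against 12.6% of all tested genes. No gene had both knockdown libraries above both controls, which 13.3% of all genes had. Many of these genes are known targets of the same factors, so they are not independent measurements.

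By the edgeR quasi-likelihood test with Benjamini-Hochberg adjustment, 0 of 28 genes were called, meaning past both an adjusted p of 0.05 and a 1.5-fold difference, as were 0% of the 11810 genes tested. Every one of the 28 adjusted p-values was 1.00. DESeq2 also called 0 of the 28, and 0% of its 15605 genes. At an unadjusted p under 0.05, 7 genes were lower in edgeR (MSMO1, CYP51A1, SC5D, HMGCS1, DHCR7, SQLE and INSIG1), against 0.779% of all genes, and 7 in DESeq2. None was higher, against 1.7% of all genes. MSMO1, INSIG1 and CYP51A1 were lower by at least 1.5-fold, which 1.97% of all genes were. With 2 libraries per group, an exact permutation test of a single gene cannot go below p = 0.333.

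The lower levels were carried mainly by 1 library. NK shADAR1 replicate 1 was below both controls for 20 of 28 genes, against 33.6% of all tested genes. It was the lowest of the 4 libraries for 20 of 28, against 3435 of 11810 tested genes. NK shADAR1 replicate 2 was below both controls for 23 of 28, against 29.3%, but by smaller amounts. Without NK shADAR1 replicate 1, 0 genes were at an unadjusted p under 0.05 and the median stood at -0.19 on the log2 scale. Without NK shADAR1 replicate 2, these were 12 genes and -0.52. Without NK scramble replicate 1, the median was -0.28 with 3 genes, and without NK scramble replicate 2 it was -0.40 with 8.

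**Figure D2:**
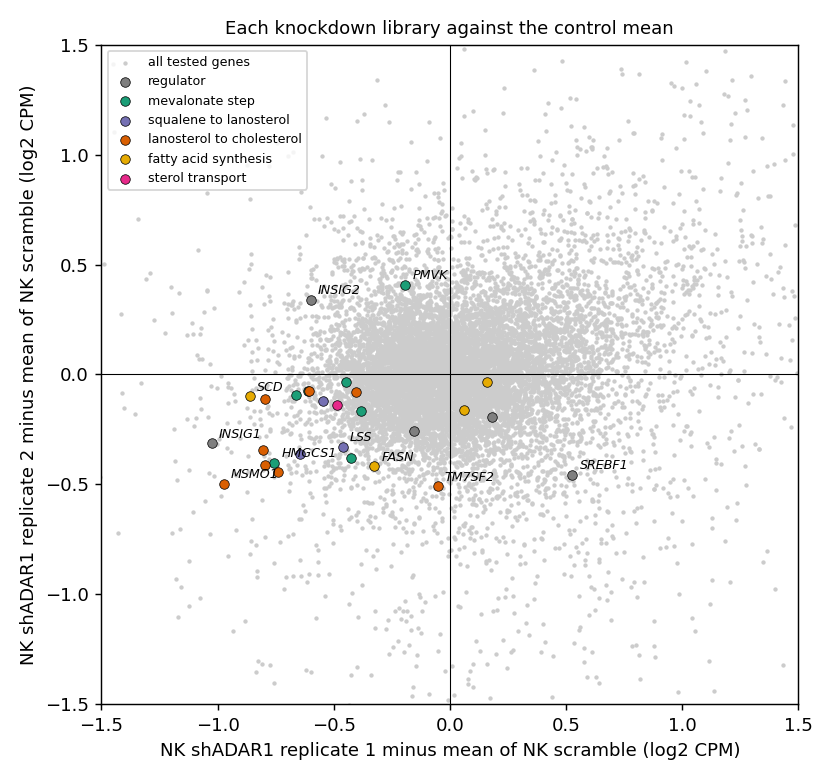
Difference in log2 CPM between each knockdown library and the mean of the NK scramble libraries, NK shADAR1 replicate 1 on the horizontal and replicate 2 on the vertical axis, for all tested genes (grey) and the 28 genes (coloured by role). The axes stop at 1.5 on the log2 scale and leave out 213 tested genes, and most coloured points lie left of and below 0, farther from 0 on the horizontal axis.

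Of the 5 regulators, 4 had a log2 fold change below 0, against 50% of all tested genes. Both knockdown libraries were below both controls for 1 of 5, against 12.6% of all tested genes. The median log2 fold change of the regulators was -0.056 (-0.27 without NK shADAR1 replicate 1). SREBF1, which encodes SREBP-1, was at 72.5 and 47.0 CPM in the control libraries, against 84.2 and 42.5 CPM in the knockdown libraries. Its log2 fold change was 0.08 (SE 0.32), and the control libraries differed from each other by more than the groups did. Leaving out NK shADAR1 replicate 1 turned it to -0.49, and leaving out NK scramble replicate 2 turned it to -0.20. Its exons overlap those of RAI1 on the opposite strand. SREBF2, which encodes the main factor of the cholesterol pathway, was at 403 and 307 CPM in the control libraries, against 316 and 294 CPM in the knockdown libraries, a log2 fold change of -0.22 (SE 0.21) with overlapping groups. Here NK scramble replicate 1 stood above the other libraries, and the value without it was -0.012, and -0.41 without NK scramble replicate 2. SCAP, the sterol-sensing escort, was at 101 and 80.2 CPM in the control libraries, against 102 and 78.7 CPM in the knockdown libraries, with a log2 fold change of -0.0038 (SE 0.22).

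INSIG1, which retains SCAP in the endoplasmic reticulum and is induced by SREBP, was the regulator with the largest difference. It was at 613 and 428 CPM in the control libraries, against 252 and 412 CPM in the knockdown libraries. Both knockdown libraries were below both controls, but replicate 2 was close to the lower control. The log2 fold change was -0.65 (SE 0.27, 95% interval -1.26 to -0.042), with an unadjusted p = 0.0384 in the edgeR quasi-likelihood test (adjusted p = 1.00). It was -0.34 without NK shADAR1 replicate 1, -0.37 without NK scramble replicate 1 and -1.05 without NK shADAR1 replicate 2. INSIG2, the related retention protein, was at 17.7 and 16.5 CPM in the control libraries, against 11.3 and 21.6 CPM in the knockdown libraries, so that the knockdown libraries lay on either side of the controls. Its log2 fold change was -0.056 (SE 0.29), and 0.34 without NK shADAR1 replicate 1.

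The mevalonate steps lead from acetyl-CoA to farnesyl diphosphate, and 6 of these 7 genes had a value below 0 (median log2 fold change -0.33), 3 of them with both knockdown libraries below both controls, against 12.6% of all tested genes. The median was -0.096 without NK shADAR1 replicate 1. HMGCS1, which makes HMG-CoA, was at 794 and 676 CPM in the control libraries, against 434 and 555 CPM in the knockdown libraries. Both knockdown libraries were well below both controls, with replicate 1 the lower. The log2 fold change was -0.57 (SE 0.22, 95% interval -1.05 to -0.089), with an unadjusted p = 0.0246 in edgeR (adjusted p = 1.00). MVD, the decarboxylase that makes isopentenyl diphosphate, was at 96.6 and 74.0 CPM in the control libraries, against 62.9 and 65.0 CPM in the knockdown libraries (log2 fold change -0.42, SE 0.21), and at -0.21 without NK scramble replicate 1. IDI1, which isomerises that product, was at 208 and 187 CPM in the control libraries, against 125 and 185 CPM in the knockdown libraries. Its groups were apart only by the small step between 187 and 185 CPM. The log2 fold change of -0.35 (SE 0.23) was -0.096 without NK shADAR1 replicate 1 and -0.67 without NK shADAR1 replicate 2.

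The groups overlapped for the other 4 mevalonate genes. ACAT2, the acetoacetyl-CoA thiolase, had a log2 fold change of -0.33 (SE 0.24), MVK, mevalonate kinase, -0.28 (SE 0.22), and FDPS, farnesyl diphosphate synthase, -0.23 (SE 0.21). Without NK shADAR1 replicate 1, ACAT2 was at -0.090, MVK at -0.18 and FDPS at -0.032. Without NK scramble replicate 1, MVK was at -0.077, and without NK scramble replicate 2, ACAT2 was at -0.10. These values rest on single libraries, and without NK shADAR1 replicate 2 ACAT2 was at -0.63 and FDPS at -0.45. PMVK, phosphomevalonate kinase, was the enzyme of sterol synthesis with a value above 0, at 0.12 (SE 0.25). It was at 31.3 and 43.4 CPM in the control libraries, against 32.3 and 48.9 CPM in the knockdown libraries, and became -0.21 without NK shADAR1 replicate 2 and -0.10 without NK scramble replicate 1. Exons of ACAT2 and MVK overlap those of TCP1 and MMAB on the opposite strand, and the counting was not stated to use strand, so reads from the shared stretches may have been mixed. How many reads fall there was not measured. FDPS has 8 pseudogenes named for it in GENCODE v29 that could share its reads.

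All 3 genes from farnesyl diphosphate to lanosterol had both knockdown libraries below both controls, against 12.6% of all tested genes. SQLE, squalene epoxidase, a rate-limiting enzyme of the pathway, was at 48.2 and 43.8 CPM in the control libraries, against 29.4 and 35.8 CPM in the knockdown libraries. Its log2 fold change was -0.50 (SE 0.20, 95% interval -0.95 to -0.045), with an unadjusted p = 0.0342 in edgeR (adjusted p = 1.00). LSS, which closes the sterol rings to give lanosterol, was at 135 and 147 CPM in the control libraries, against 102 and 112 CPM in the knockdown libraries (log2 fold change -0.40, SE 0.19). Its knockdown libraries were close to each other, and its value without NK shADAR1 replicate 1 was -0.33. FDFT1, squalene synthase, was at 330 and 292 CPM in the control libraries, against 212 and 285 CPM in the knockdown libraries (log2 fold change -0.32, SE 0.21), and at -0.12 without NK shADAR1 replicate 1 and -0.55 without NK shADAR1 replicate 2.

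The 8 genes that turn lanosterol into cholesterol were below 0 in 8 of 8 cases, 7 of 8 with both knockdown libraries below both controls, against 12.6% of all tested genes. Their median log2 fold change was -0.49, or -0.38 without NK shADAR1 replicate 1 and -0.77 without NK shADAR1 replicate 2. MSMO1 (chromosome 4, 165327623 to 165343160), the methylsterol monooxygenase that removes the C4 methyl groups, had the largest difference of the 28 genes. It was at 115 and 110.1 CPM in the control libraries, against 57.4 and 79.9 CPM in the knockdown libraries. The control libraries were nearly equal and both knockdown libraries were far below them. Its log2 fold change was -0.72 (SE 0.22, 95% interval -1.20 to -0.23), with an unadjusted p = 0.00807 in edgeR (adjusted p = 1.00), and was -0.50 without NK shADAR1 replicate 1.

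CYP51A1 (chromosome 7, 92112151 to 92134803), the lanosterol demethylase, had both knockdown libraries far below both controls, with replicate 1 the lower. It was at 224 and 236 CPM in the control libraries, against 132 and 173 CPM in the knockdown libraries, with a log2 fold change of -0.59 (SE 0.21), an unadjusted p = 0.0159 in edgeR and an adjusted p = 1.00. Its exons overlap a pair of annotated genes on the same strand and its counts were not whole in any library, so its reads may have been split. SC5D (chromosome 11, 121292453 to 121308694), the desaturase that introduces the C5 double bond, was at 49.5 and 51.1 CPM in the control libraries, against 30.1 and 37.0 CPM in the knockdown libraries. Its log2 fold change was -0.58 (SE 0.20), with an unadjusted p = 0.0158 in edgeR and an adjusted p = 1.00. DHCR7 (chromosome 11, 71428193 to 71452868), which reduces 7-dehydrocholesterol to cholesterol, was at 264 and 219 CPM in the control libraries, against 138 and 189.8 CPM in the knockdown libraries. Its log2 fold change was -0.56 (SE 0.22), with an unadjusted p = 0.0284 in edgeR and an adjusted p = 1.00, and was -0.35 without NK shADAR1 replicate 1.

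In 3 further genes of these steps the second knockdown library was nearly level with the lower control. NSDHL, a sterol dehydrogenase of C4 demethylation, was at 39.6 and 42.8 CPM in the control libraries, against 27.0 and 39.1 CPM in the knockdown libraries (log2 fold change -0.32, SE 0.23). HSD17B7, the ketoreductase of the same steps, was at 29.7 and 34.1 CPM in the control libraries, against 18.3 and 29.5 CPM in the knockdown libraries (-0.42, SE 0.25). EBP, the sterol isomerase, was at 333 and 308 CPM in the control libraries, against 243 and 304 CPM in the knockdown libraries (-0.23, SE 0.20). Without NK shADAR1 replicate 1 the log2 fold changes of these genes were -0.075, -0.11 and -0.078, and without NK shADAR1 replicate 2 they were -0.61, -0.80 and -0.41. TM7SF2, a sterol reductase, was the exception to the lack of overlap, at -0.27 (SE 0.25), or -0.059 without NK shADAR1 replicate 2 and -0.51 without NK shADAR1 replicate 1, and had its lowest value, 9.37 CPM, in NK shADAR1 replicate 2. Exons of TM7SF2 overlap those of VPS51, 2 pseudogenes are named for HSD17B7, and EBP counts were not whole in any library, so reads of these genes may be shared.

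**Figure D3:**
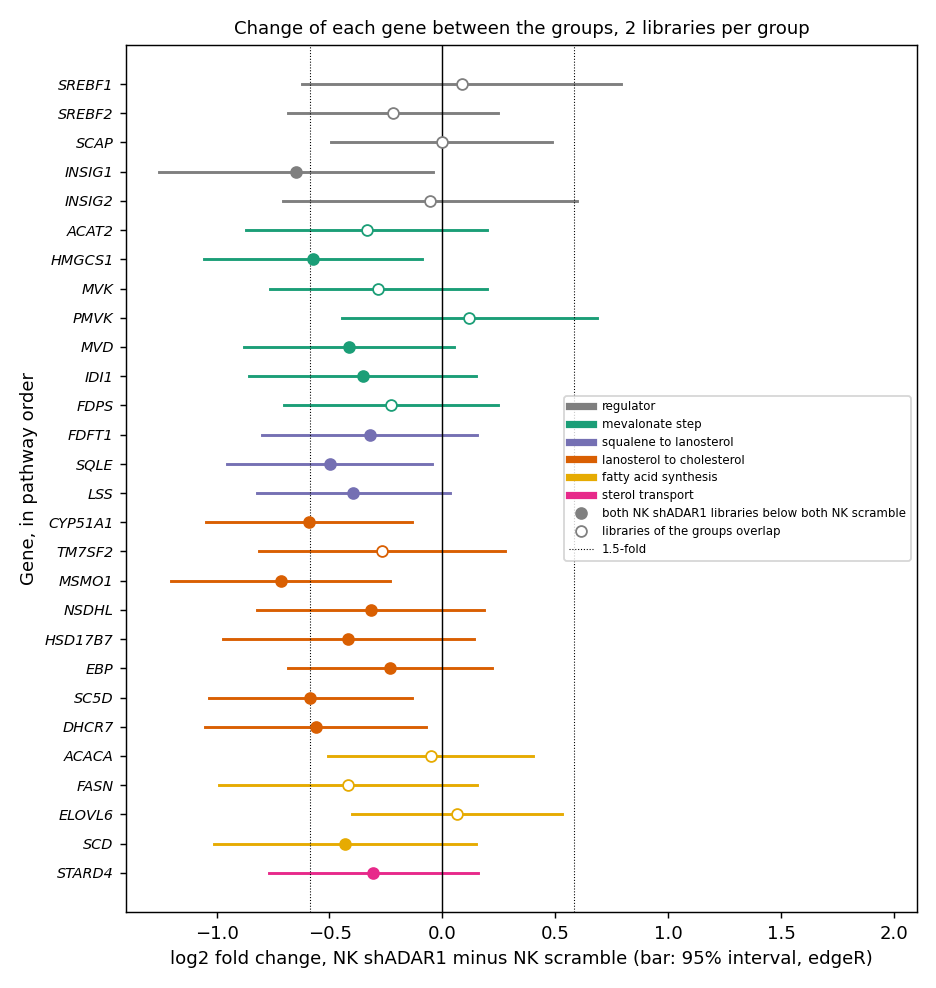
Log2 fold change of NK shADAR1 over NK scramble (horizontal axis) with its 95% interval from edgeR for each gene in pathway order, 2 libraries per group, filled where both knockdown libraries were below both controls. The 7 intervals that end below 0 belong to INSIG1, HMGCS1, SQLE, CYP51A1, MSMO1, SC5D and DHCR7, before any adjustment for the number of genes tested.

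Taking the 18 enzymes of sterol synthesis from ACAT2 to DHCR7 together, 17 were below 0 (50% of all tested genes), 13 had both knockdown libraries below both controls (12.6% of all) and 6 were lower at an unadjusted p under 0.05 (0.779% of all). Their median log2 fold change was -0.37, or -0.25 without NK shADAR1 replicate 1 and -0.62 without NK shADAR1 replicate 2. Their summed level was 3360 and 3206 CPM in the control libraries, against 2145 and 2809 CPM in the knockdown libraries. The knockdown libraries thus held 65.3% and 85.6% of the control mean. A lower level in every cell and a change in only some of the cells cannot be told apart in bulk RNA.

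The genes of fatty acid synthesis differed less evenly. ACACA, acetyl-CoA carboxylase, was at 88.0 and 105 CPM in the control libraries, against 100.4 and 86.0 CPM in the knockdown libraries (log2 fold change -0.052, SE 0.20, 95% interval -0.50 to 0.40). FASN, fatty acid synthase, was at 894 and 532 CPM in the control libraries, against 551 and 516 CPM in the knockdown libraries. A single control library stood above the other 3, so the log2 fold change of -0.42 (SE 0.26) was 0.00050 without NK scramble replicate 1 and -0.75 without NK scramble replicate 2. SCD, the stearoyl-CoA desaturase that makes monounsaturated fatty acids, had the highest CPM of the 28 genes, with 1277 and 1258 CPM in the control libraries, against 698 and 1184 CPM in the knockdown libraries. It was without overlap, but its log2 fold change of -0.43 (SE 0.26) rested on 1 library and was -0.097 without NK shADAR1 replicate 1 and -0.86 without NK shADAR1 replicate 2. SCD has 1 named pseudogene that could share its reads. ELOVL6, an elongase of long-chain fatty acids, was at 18.0 and 18.4 CPM in the control libraries, against 20.4 and 17.8 CPM in the knockdown libraries (log2 fold change 0.07, SE 0.21), and -0.035 without NK shADAR1 replicate 1. STARD4, which carries sterol between membranes, was at 56.7 and 62.9 CPM in the control libraries, against 42.6 and 54.2 CPM in the knockdown libraries (-0.31, SE 0.21), without overlap. The value was -0.14 without NK shADAR1 replicate 1 and -0.49 without NK shADAR1 replicate 2, and -0.17 on log2(FPKM + 0.1).

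**Figure D4:**
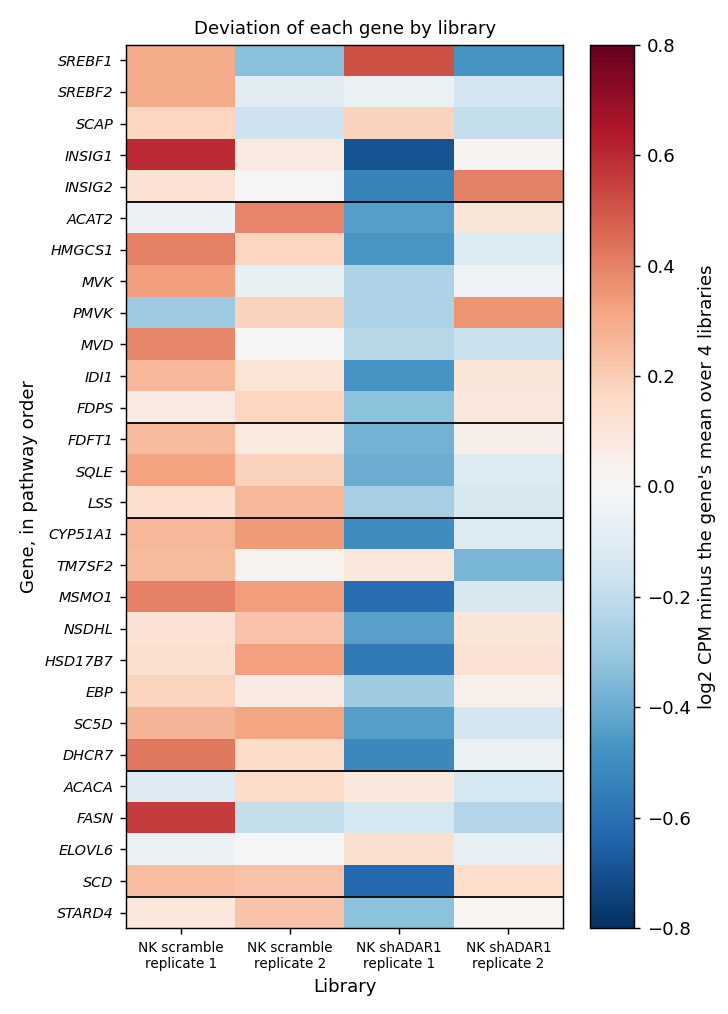
Log2 CPM of each gene minus its mean over the 4 libraries (colour scale, red above and blue below the mean), with genes in pathway order and lines between roles. The column of NK shADAR1 replicate 1 is blue for nearly all sterol enzymes and for INSIG1 and SCD, whereas replicate 2 is pale, and FASN stands out in NK scramble replicate 1.

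Other genes of sterol and lipid handling were counted from lists outside the 28. Of 21 genes of sterol uptake, storage and efflux, 16 were tested, 12 of these were below 0, 5 had both knockdown libraries below both controls and 2 had both above, where 12.6% and 13.3% of all tested genes did. ABCG1, which exports cholesterol, was the one gene of the 4 lists at an unadjusted p under 0.05. It was at 49.5 and 37.7 CPM in the control libraries, against 68.7 and 56.0 CPM in the knockdown libraries, higher in both knockdown libraries, with a log2 fold change of 0.52 (SE 0.22) and an adjusted p = 1.00 in edgeR. Of the 11 genes that process SREBP or degrade proteins in response to sterol, 6 were below 0 and 2 were lower without overlap, which is near the 12.6% of all tested genes, with a median of -0.013. Of 24 genes of fatty acid supply, elongation and desaturation, 20 were tested and 16 of these were below 0. Among them 7 were lower without overlap, against 12.6% of all tested genes, and the median was -0.15. Of the 7 genes of the isoprenoid branch, 6 were below 0, with a median of -0.062. In this branch 2 were lower without overlap, against 12.6% of all tested genes.

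The order of the libraries differed between the sterol enzymes and the interferon-stimulated genes, a list taken from results of these same samples and so not independent evidence of its direction. The median deviation of the 18 sterol enzymes from their mean over the 4 libraries was 0.26 and 0.18 log2 CPM in the controls, against -0.42 and -0.042 in the knockdown libraries. All 8 interferon-stimulated genes (IFIT1, OAS1, OAS2, ISG15, IFI27, USP18, IRF9 and MX1) were lower in both knockdown libraries, as were 12.6% of all tested genes. Their median deviation was 0.63 and 0.65 log2 CPM in the controls, against -0.035 and -1.23 in the knockdown libraries. ADAR was also lowest in NK shADAR1 replicate 2. The knockdown library with the lowest sterol enzymes was therefore the one with the higher ADAR and the higher interferon-stimulated genes. Their part in the levels of the sterol genes was not tested.

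**Figure D5:**
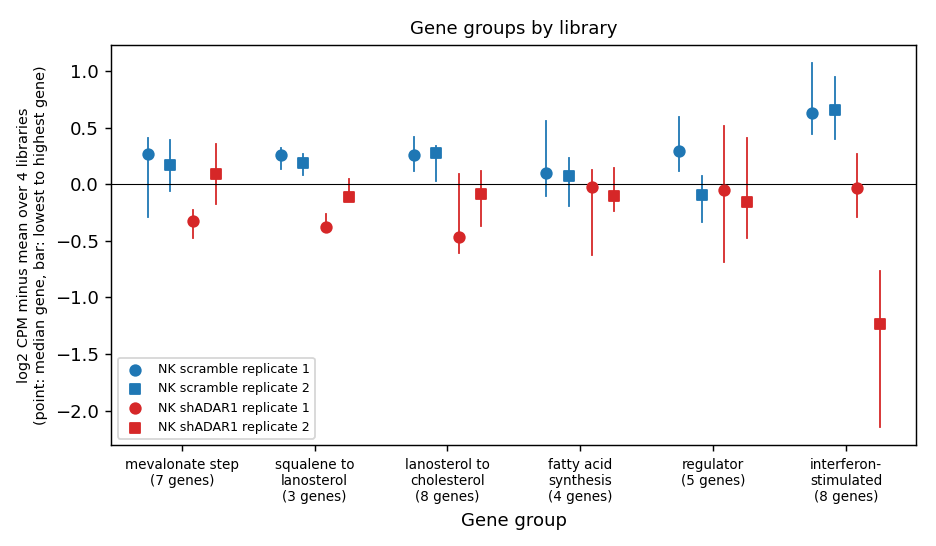
Median (point) and lowest to highest (bar) log2 CPM of the genes in each group minus each gene's mean over the 4 libraries, for 5 groups of the pathway and for 8 interferon-stimulated genes. The steps from mevalonate to cholesterol are lowest in NK shADAR1 replicate 1, and the interferon-stimulated genes in NK shADAR1 replicate 2.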

How the data were processed

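RNA of 4 NK-92 libraries was enriched with oligo(dT), prepared with a NEBNext Ultra kit and sequenced. The authors deposited 1 table of all genes with estimated counts, not normalized, and FPKM values, which scale counts by length and library size. The submitters' processing notes name fastp 0.18.0, and the aligner, counter, build and annotation are not given in the sources used here. Estimated counts were rounded to whole numbers, filtered (filterByExpr, minimum count 10), scaled by TMM and tested in R 4.3.3 with the quasi-likelihood test of edgeR 4.0.16 over 11810 genes, with Benjamini-Hochberg adjustment. A gene was called past an adjusted p of 0.05 with a 1.5-fold difference. The SE is the size of the log2 fold change divided by the square root of F, and log2 CPM used a prior count of 2. FPKM served for levels between genes. Gene positions are from GENCODE v29 (GRCh38) and promoters from RefSeq (GRCh38.p14). Scripts were tested on simulated data. Alternatives used DESeq2 1.42.0, limma 3.58.1 on log2 FPKM, other scalings and filters, the replicate block, and each library left out.

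The 28 genes and the other lists were chosen with earlier results of these data known. All 28 genes were named by role, with every library for the regulators, HMGCS1, SQLE, ACACA, FASN, SCD, and any gene at an unadjusted p under 0.05 or a 1.5-fold difference. Of the other lists, genes at an unadjusted p under 0.05 were named. Single values of some genes of these lists are not reported here.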

Additional observations from a re-analysis of the deposited data

How the results depend on the processing

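No alternative called any of the 28 genes. Over the whole table, 0 genes were called by edgeR (293 at an unadjusted p under 0.05), 0 by DESeq2 (289), and 13 with the replicate block, which put 681 genes and 12 of the 28 genes at an unadjusted p under 0.05. Same-numbered libraries deviated together (correlation 0.31) and had the highest correlations of log2 CPM (0.985 and 0.989). Whether the libraries were prepared in pairs is not stated and was not tested. With 1 library left out, which assumes that a lone library varies like the other group, 1 to 47 genes were called, 204 to 692 genes and 0 to 12 of the 28 were at an unadjusted p under 0.05, and the median log2 fold change of the 28 ran from -0.52 to -0.19. The value of SCAP was 0.0068 with upper quartile scaling, 0.0056 with a mean of at least 50 counts and 0.015 on log2 FPKM with either pseudocount (0.1 or 1) or no filter. With 1 library left out, the log2 fold change ran from -0.49 to 0.49 for SREBF1, -0.20 to 0.17 for SCAP, -0.60 to 0.34 for INSIG2, -0.21 to 0.39 for PMVK, -0.18 to 0.077 for ACACA, -0.75 to 0.00050 for FASN and -0.035 to 0.16 for ELOVL6. The cause of these shifts was not tested. Apart from SCAP, the direction of all 28 genes was the same under DESeq2, other scalings, filters, the replicate block and FPKM. Of the 28 genes, 16 were without overlap under other scalings and filters and 17 on FPKM. In the main fit, 12.6% of all tested genes were lower without overlap and 13.3% higher. That share was not counted under the other settings. With 1 library left out, fewer libraries overlap more rarely, so counts without overlap are not given for these fits.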
